A study of Mus musculus with 6 samples.

Results

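Igfbp5, a secreted protein that binds insulin-like growth factors (IGF), was examined in mouse kidney together with 9 other genes of the IGF system: the ligand gene Igf1, the receptor genes Igf1r and Igf2r, and the binding protein genes Igfbp1, Igfbp2, Igfbp3, Igfbp4, Igfbp6 and Igfbp7. All probes that the array files name for these 10 genes were taken, which gave 18 of the 56605 probes on the array. Igfbp5 was chosen because its signal fell very far in the diseased kidneys, so its own difference is described here and not tested. The other 9 genes, with 16 probes, were taken for their place in the system.

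Transcriptomic analysis (TA) compared whole kidneys of 3 MRL mice and 3 LPR mice. MRL stands for MRL/MpJ, the control strain, and LPR for MRL/MpJ-Fas lpr/lpr, which carries the lpr mutation of the death receptor gene Fas on the MRL/MpJ background and develops a lupus-like autoimmune disease with nephritis. All 6 mice were untreated females of 6 months of age, and 1 array was run for each mouse without pooling. The mice were bought as strains, and whether any of them were littermates is not given in the sources used here.

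The values below are log2 signals relative to the 75th percentile of each array, so that 0 is the level of that percentile. A difference is LPR minus MRL, where -1 is a 2-fold fall. Between 69.6% and 73.5% of the spots of an array were well above background, no spot was saturated, and the number of arrays limits the precision. All 18 probes of the IGF system were well above background on all 6 arrays. Kidney markers were present throughout, with 7 of 7 proximal tubule genes and 6 of 6 podocyte genes above background on every array. Fas itself gave -0.47 at its brighter probe A_55_P2091676 (limma adjusted p = 0.234). Its other probe, A_52_P73385, was above background in 3 of 3 LPR mice but in 0 of 3 MRL mice. It was at least 1.47-fold brighter there, counted from the lowest detectable signal of the MRL arrays. This probe entered the analysis only through the LPR mice, so no test of it is given.

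IGF1 and IGF2 are small peptides related to insulin. IGF1 acts through the receptor tyrosine kinase IGF1R and the PI3K-AKT-mTOR route, whereas IGF2R takes IGF2 up for breakdown in lysosomes. Binding proteins hold the peptides in blood and tissue, and proteases such as PAPPA release them. IGFBP5 also binds extracellular matrix, and in the kidney IGF1 is known to raise filtration and to act on tubular transport.

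Igfbp5 was measured by 2 probes and Igf1 by 3, and the sequences below show that the probes of a gene read different stretches of it. The first 30 of the 60 bases of each probe are printed in the orientation given in the array files, in lower case throughout, since no motif is marked.
Igfbp5 A_52_P281702: cacatcacatattactgtagctctctatag
Igfbp5 A_66_P101782: tttagcattttggtacttaaggaaataaaa
Igf1 A_51_P147942: cgcaggatcctttgctgcttgagcaacctg
Igf1 A_55_P2085979: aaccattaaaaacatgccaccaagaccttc
Igf1 A_52_P306327: taaaatagttgagtaaaatttgccactgat

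Both Igfbp5 probes lie on the minus strand of chromosome 1 of the mouse build mm9. Probe A_52_P281702 covers chr1:72904829-72904888 and starts at base 5604 of the transcript NM_010518. Probe A_66_P101782 is placed at chr1:72904506-72904552, which holds 47 of its 60 bases, and starts at base 5832 of ENSMUST00000027377. The 2 probes therefore do not overlap and lie 276 bases apart near the end of a long transcript. The exon and UTR of each probe were not looked up, because an annotation of mm9 was not used here.

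Igfbp5 was about 20-fold lower in LPR kidneys at both probes. At A_52_P281702 the 3 MRL mice gave 4.45, 4.13 and 4.29, and the 3 LPR mice gave 0.42, -0.13 and -0.70. All LPR mice lay far under all MRL mice, and the highest LPR mouse was 3.71 below the lowest MRL mouse. The MRL mean was 4.29 ± 0.16 (SD, n = 3) and the LPR mean -0.14 ± 0.56 (SD, n = 3), which is a difference of -4.42 or 21.5-fold.

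Probe A_66_P101782 showed the same picture at a lower signal. It gave 0.46, 0.20 and 0.12 in the MRL mice and -3.68, -4.39 and -4.78 in the LPR mice. Again no LPR mouse reached the MRL mice. The difference was -4.54, or 23.3-fold. The levels of different probes are not set against each other here, since brightness depends on the probe, but the 2 differences can be compared. They differed by 0.12 (SD between mice 0.11), and the offset between the probes overlapped between the groups, so the probes were not distinguishable in how far they fell.

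The LPR mice differed among themselves more than the MRL mice did. At A_52_P281702 the MRL mice spanned 0.32 and the LPR mice 1.11 on the log2 scale. Igfbp5 was 14.7-fold below the MRL mean in LPR 1, 21.3-fold in LPR 2 and 31.7-fold in LPR 3. At A_66_P101782 these folds were 15.4, 25.1 and 32.8, and the mice stood in the same order. Both probes were read on the same arrays, so this order holds for these RNA samples and has no second measurement behind it.

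**Figure D1:**
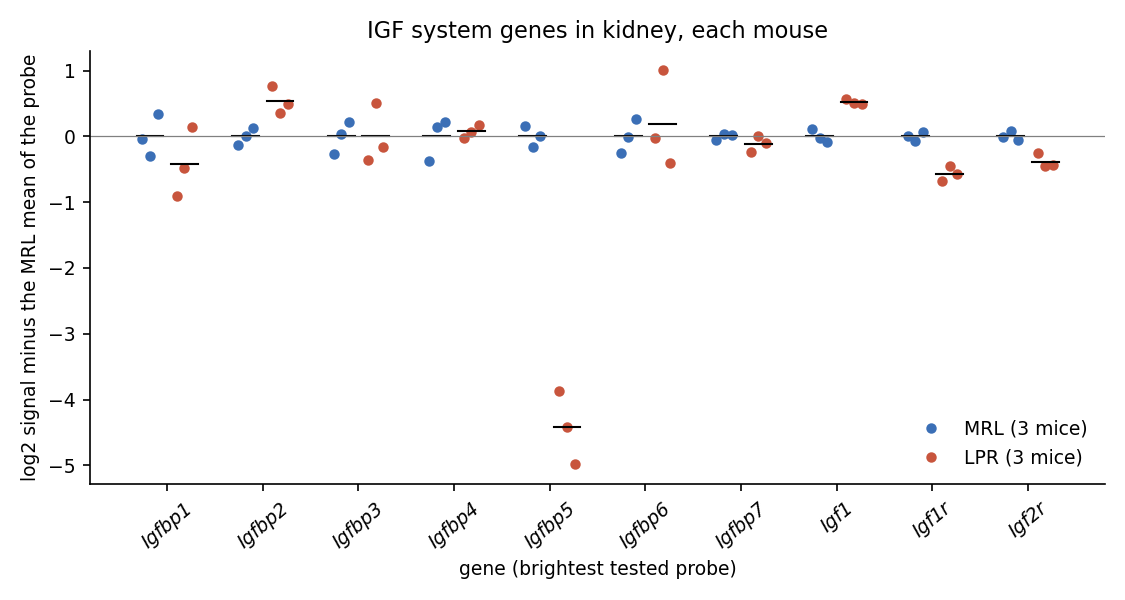
Signal of the brightest probe of each IGF system gene in each mouse, as log2 signal minus the MRL mean of that probe (y axis), by gene (x axis). Points are the 3 MRL and 3 LPR mice and the bars are group means. The LPR mice lie between 3.87 and 4.99 below the MRL mean for Igfbp5, and their means lie within 0.57 of it for the other genes, whose group values often overlap.

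Few transcripts fell this far. Of the 39924 tested probes, 5 or 0.0125% were at least 10-fold lower in LPR mice, and the Igfbp5 probes stood at places 3 and 4 of all falls. The others were Serpina6 (-4.66), the predicted gene Gm46902 (-4.58) and Ucp1 (-4.30), and the next probe, AK083287, had -3.09. Ucp1 and AK083287 were above background in 1 of 3 LPR mice each, so the size of these 2 differences rests on signals at background. These places describe the choice of Igfbp5 and are not a test of it. The median of all tested probes was -0.14, and the other IGF system probes surrounded it.

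**Figure D2:**
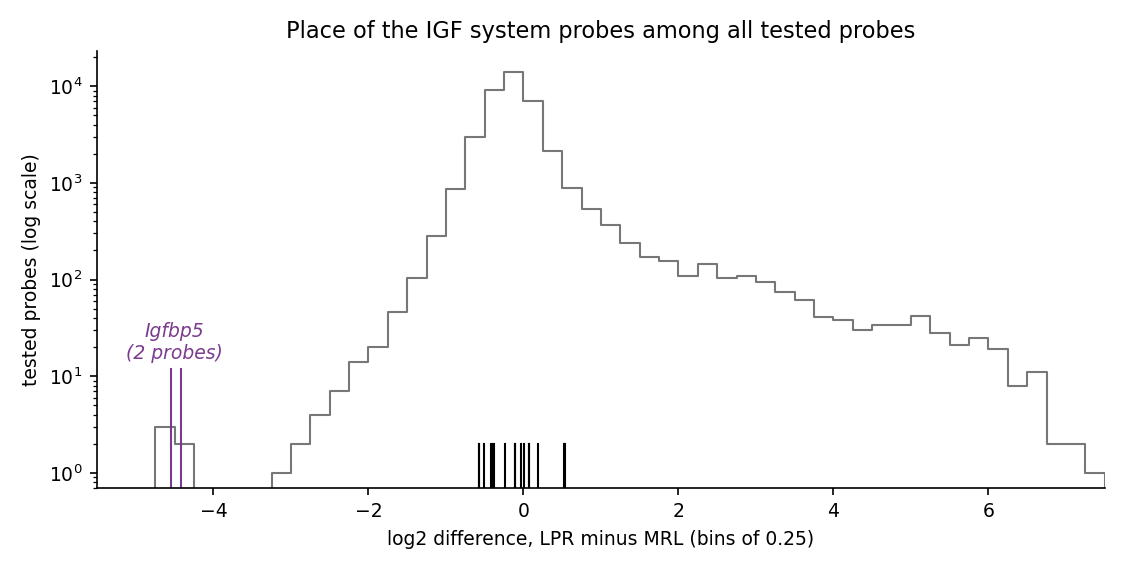
Number of tested probes (y axis, log scale) by log2 difference between LPR and MRL mice (x axis, bins of 0.25). Purple lines mark the 2 Igfbp5 probes at -4.42 and -4.54, and short black lines mark the 16 probes of the other 9 IGF system genes, which lie between -0.57 and 0.54.

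Outside Igfbp5 the IGF system moved little. In limma, with adjustment over all tested probes, 1 of the 16 other probes rose in LPR mice, 2 fell and 13 did not pass. Among all tested probes 6.53% were higher and 6.17% were lower, so the shares of 1 and 2 of 16 do not set these genes apart. Every LPR mouse was above every MRL mouse at 2 of the 16 probes and below at 3, against 11.0% and 26.9% of all probes, and the groups overlapped at 11. The median difference of the 16 probes was -0.11, beside -0.14 for all tested probes.

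**Figure D3:**
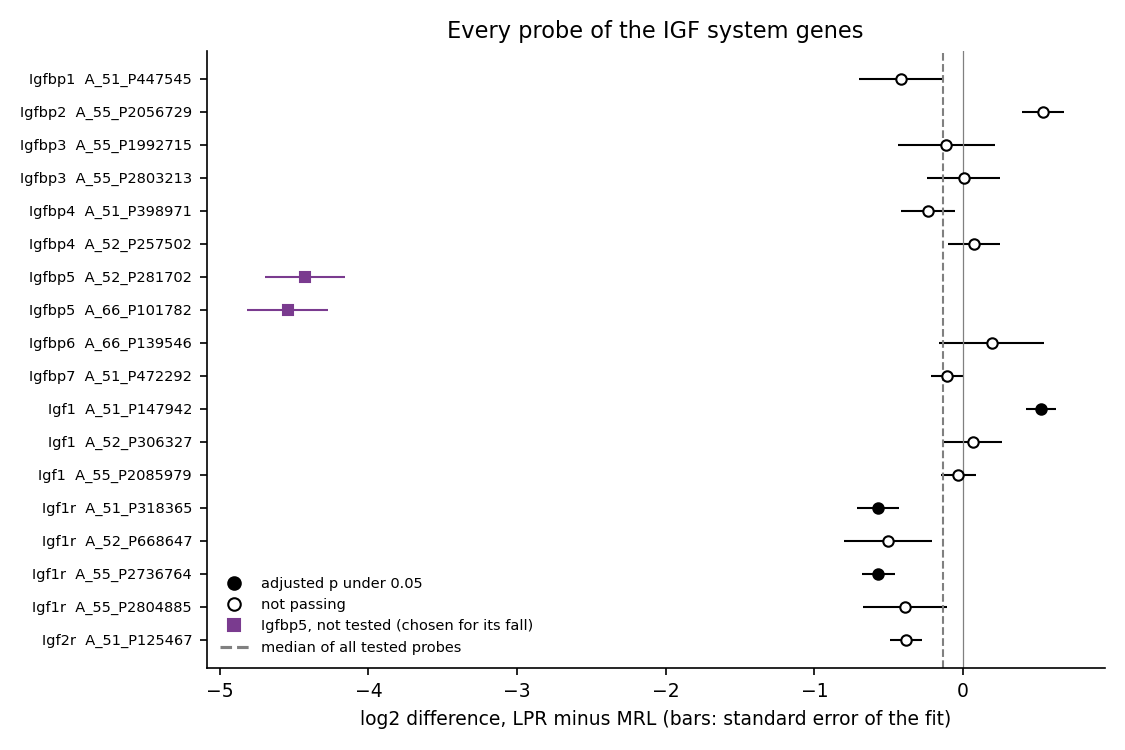
Log2 difference between LPR and MRL mice (x axis) for each of the 18 probes (y axis), with the standard error of the fit as bars. Filled circles passed an adjusted p of 0.05, open circles did not, and the purple squares are the Igfbp5 probes, which were not tested; 1 Igf1 probe lies at 0.52, 2 Igf1r probes at -0.57, and the dashed line is the median of all tested probes.

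Igf1, the ligand that the growth hormone receptor induces, rose at 1 of its 3 probes. Probe A_51_P147942 (transcript NM_010512, chr10:87393516-87393575) gave 0.04, -0.09 and -0.16 in MRL mice and 0.51, 0.44 and 0.42 in LPR mice. The LPR mice were all above the MRL mice, by 0.52 on average (standard error 0.10, 1.44-fold, limma adjusted p = 0.0209). Probe A_55_P2085979 (ENSMUST00000062862, chr10:87378456-87378515) gave -0.44, -0.53 and -0.62 against -0.70, -0.41 and -0.57, and its groups overlapped. Its difference was -0.03 (95% confidence interval -0.31 to 0.25, limma adjusted p = 0.873).

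The remaining, dim probe of Igf1, A_52_P306327 (AK050118, chr10:87325382-87325441), overlapped between the groups as well, with a difference of 0.07 (limma adjusted p = 0.837). These probes are named for different transcript records of the gene and lie far apart along it. The offset of A_51_P147942 over A_55_P2085979 was 0.44 to 0.48 in MRL mice and 0.86 to 1.20 in LPR mice, without overlap. Its change between the groups was 0.56 (SD between mice 0.12). This is a description of a pair of probes and was not tested, and averaging the 3 probes left the gene at 0.19 without a call. The call at A_51_P147942 was also lost without MRL 2 (0.51), MRL 3 (0.48), LPR 1 (0.50) or LPR 3 (0.54).

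Igf1r encodes the signalling receptor of IGF1 and fell at 2 of its 4 probes. Probe A_55_P2736764 (NM_010513, chr7:75371371-75371430) gave 2.41, 2.33 and 2.48 in MRL mice and 1.72, 1.96 and 1.83 in LPR mice. Every LPR mouse was below every MRL mouse, by 0.57 on average (standard error 0.11), which is 1.48-fold (limma adjusted p = 0.0186). Probe A_51_P318365, which lies close by at chr7:75371556-75371615 on the same transcript, gave 1.58, 1.37 and 1.43 against 0.74, 1.14 and 0.78. Its groups did not overlap either, and its difference was also -0.57 (standard error 0.14, limma adjusted p = 0.0429).

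The other 2 Igf1r probes are named for the transcript ENSMUST00000207621 and lie upstream in the gene. A_52_P668647 differed by -0.50 (limma adjusted p = 0.295) and A_55_P2804885 by -0.39 (limma adjusted p = 0.387), and at both the groups overlapped. They start at bases 1709 and 1990 of that transcript and had a wider spread between mice, with LPR 1 the lowest mouse at both. All 4 differences were negative. The offset of A_52_P668647 over A_55_P2804885 was -0.268 to -0.155 in MRL mice and -0.367 to -0.275 in LPR mice, without overlap. It was not tested, and the offsets of the other pairs of Igf1r probes overlapped. How often such offsets separate over the array was not counted, here or for Igf1 and Igfbp4. The call at A_55_P2736764 was lost when any mouse but LPR 2 was left out, at values between -0.61 and -0.51, and at A_51_P318365 for the same 5 mice, at values between -0.62 and -0.50.

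Igf2r, whose product clears IGF2 and also carries lysosomal enzymes, was read by 1 probe, A_51_P125467, of which 11 of 60 bases are placed at chr17:12875253-12875263. It gave 2.74, 2.83 and 2.69 in MRL mice and 2.50, 2.30 and 2.31 in LPR mice. All LPR mice were lower, but the difference of -0.38 (standard error 0.11) did not pass (limma adjusted p = 0.0628).

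Igfbp2, a binding protein with an integrin-binding motif, was the only binding protein gene whose LPR mice were all higher. Its probe A_55_P2056729 (chr1:72898677-72898736) gave -2.11, -1.98 and -1.85 in MRL mice and -1.22, -1.63 and -1.50 in LPR mice. The difference of 0.54 (standard error 0.14, 95% confidence interval 0.20 to 0.87) missed the threshold (limma adjusted p = 0.0539). Igfbp2 and Igfbp5 are neighbours on chromosome 1, and at this pair of genes the LPR means stood on opposite sides of the MRL means.

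The binding proteins Igfbp3 and Igfbp4 showed no call. Igfbp3, the main carrier of IGF1 in blood, gave 4.85, 5.16 and 5.34 in MRL mice and 4.77, 5.63 and 4.96 in LPR mice at A_55_P2803213. The groups overlapped and the means were equal within 0.01, with a 95% confidence interval of the difference from -0.58 to 0.58 (limma adjusted p = 0.995). Its dim probe A_55_P1992715 differed by -0.11 (limma adjusted p = 0.842).

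Igfbp4, which PAPPA cleaves to release IGF, gave 1.09, 1.60 and 1.68 against 1.44, 1.52 and 1.64 at A_52_P257502, a difference of 0.08 (limma adjusted p = 0.799). Its other probe A_51_P398971 differed by -0.23 (limma adjusted p = 0.415). The groups overlapped at each of these probes. The offset between them changed by 0.31 (SD between mice 0.05) and did not overlap between the groups, a difference between probes that was not tested.

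Igfbp1, whose transcript insulin represses in liver, gave 3.14, 2.89 and 3.52 in MRL mice and 2.28, 2.70 and 3.32 in LPR mice. The groups overlapped at a difference of -0.42 (standard error 0.28, limma adjusted p = 0.357). Igfbp6, which prefers IGF2, gave -1.25, -1.02 and -0.74 against -1.03, 0.00 and -1.41. LPR 2 was the highest and LPR 3 the lowest of the 6 mice, and the difference was 0.19 (standard error 0.35, limma adjusted p = 0.740).

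Igfbp7 encodes a protein that binds IGF only weakly and is made by vessel walls. It gave 8.02, 8.11 and 8.10 in MRL mice and 7.85, 8.08 and 7.98 in LPR mice. The groups overlapped, and the 95% confidence interval of the difference of -0.11 reached from -0.36 to 0.15 (limma adjusted p = 0.525), which leaves out any change near that of Igfbp5.

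The genes on either side of Igfbp5 were read after its values were seen, in the order of a RefSeq gene table of a later mouse build. Rpl37a, which encodes a ribosomal protein, differed by 0.07 (limma adjusted p = 0.769). Tnp1, a gene of sperm chromatin, differed by -0.19 (limma adjusted p = 0.290), and Tns1, which encodes the focal adhesion protein tensin, by -0.23 (limma adjusted p = 0.281). Rufy4, the third gene after Igfbp5, fell by 0.90 on the log2 scale (limma adjusted p = 0.00813). None of these genes fell as far as Igfbp5. Ankar, the next gene on the side of Rpl37a, had no tested probe.

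The genes with the pattern most like Igfbp5 were sought among 27869 probes of named genes that were above background in all MRL mice. Likeness was the root mean squared difference over the 6 mice between log2 signals, each centred on its own MRL mean. The size of a fall counts in this measure, so it favours probes that fell far. The second Igfbp5 probe was at 0.12 on this measure. The nearest genes were Serpina6 at 0.72, which encodes corticosteroid-binding globulin, and Ucp1 at 1.06, the uncoupling protein of brown fat. They were followed by Acvr1c (1.26), an activin receptor, Cidea (1.28), a lipid droplet protein, and Ntn4 (1.29), a netrin of basement membranes. Among all falls, Serpina6, Ucp1, Acvr1c, Cidea and Ntn4 stood at places 1, 5, 7, 8 and 11. The search thus largely named the largest falls again.

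The single mice differed in Serpina6 and Ntn4 in ways that Igfbp5 did not. Serpina6 gave 3.51, 3.02 and 3.69 in MRL mice and -2.01, -0.24 and -1.52 in LPR mice, so that LPR 1 was lowest in Serpina6 and highest in Igfbp5. Ntn4 gave 2.10, 2.13 and 2.12 against -0.55, -0.44 and -0.64, with almost no spread inside a group. Cidea gave 0.80, 0.19 and 0.63 against -0.53, -2.54 and -4.15. Its LPR mice stood in the order of Igfbp5 and were spread over a wider range. The LPR mice stood in the order of Igfbp5 for Ucp1 and Acvr1c as well, but these 2 genes were above background in 1 of 3 LPR mice each. These genes were chosen for their likeness on these 6 arrays, which they share with Igfbp5, and no test is given.

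**Figure D4:**
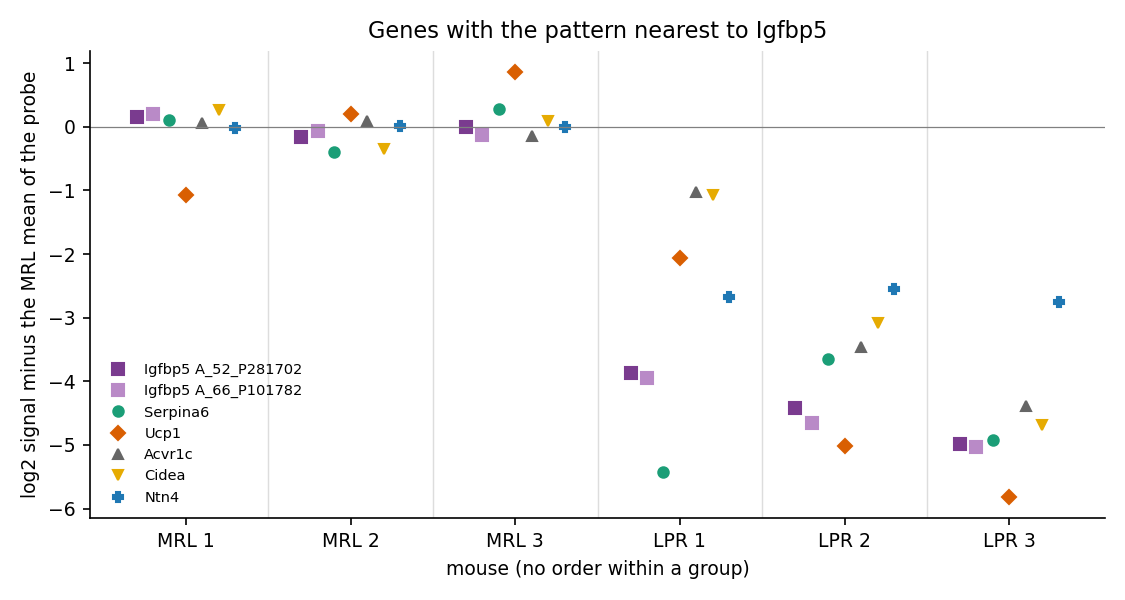
Log2 signal minus the MRL mean of the probe (y axis) in each of the 6 mice (x axis) for the 2 Igfbp5 probes and the 5 genes with the most similar pattern. The Igfbp5 probes fall together in every LPR mouse, Serpina6 is lowest in LPR 1, Ntn4 lies near one level in all LPR mice, and Ucp1, Acvr1c and Cidea are lower in LPR 2 and LPR 3 than in LPR 1.

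Because Ucp1 and Cidea were among them, 10 fat genes were listed after these values were seen (Adipoq, Cfd, Cidea, Dio2, Fabp4, Lep, Plin1, Pparg, Retn and Ucp1). Of these, Ucp1 and Fabp4 passed as lower and 8 did not pass, beside 5.47% lower among all genes at their brightest probe. The call of Ucp1 is not a test, since Ucp1 was picked for its likeness to Igfbp5 and was above background in 1 of 3 LPR mice. Dio2 (0.91) and Pparg (0.46) differed upward without passing, and the other fat genes differed downward. Pparg was higher in every LPR mouse than in any MRL mouse, as were 11.0% of all tested probes. Adipoq, Cfd, Cidea, Fabp4, Lep, Plin1 and Ucp1 were lower in every LPR mouse, as were 26.9% of all tested probes. The groups overlapped at Dio2 and Retn. The median difference of the 10 genes was -1.46. Ucp1 and Cidea prompted the list, so the count and the median are partly fixed by that choice. Their signals, summed on the linear scale as multiples of the 75th percentile, were 45.0, 53.1 and 59.0 in MRL mice and 36.2, 33.9 and 13.3 in LPR mice. The LPR mice stood in the same order in this sum and in Igfbp5, with LPR 1 highest and LPR 3 lowest in both. Cfd and Fabp4 have the highest signals of the list and weigh most in the sum. In the LPR mice Cfd gave 4.27, 4.43 and 1.38, and Fabp4 gave 3.43, 3.04 and 3.05. Neither of them alone stood in the order of Igfbp5, while Adipoq, Cidea, Plin1, Retn and Ucp1 did. In LPR 1 the sum was 36.2 and Igfbp5 was 3.87 below the MRL mean at A_52_P281702. The part of fat tissue in the Igfbp5 difference was not tested.

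Marker genes of the cell types that a kidney holds were read beside these values, against a background of 7.12% of all genes higher and 5.47% lower at their brightest probe. In whole-kidney RNA, fewer cells of a type and less RNA per cell cannot be told apart. Of 7 endothelial genes, Kdr, the receptor of VEGF, fell by 0.57 on the log2 scale (limma adjusted p = 0.0317) and 6 did not pass. Of these 6, Pecam1 (0.18) and Cdh5 (0.07) differed upward, and Emcn (-0.38), Tek (-0.39), Tie1 (-0.13) and Ehd3 (-0.02) downward. The summed signal of the 7 genes was 19.8 to 20.8 in MRL mice and 15.2 to 17.4 in LPR mice. Of 6 mesangial and pericyte genes, Ren1, which encodes renin, fell by 1.63 (limma adjusted p = 0.0113) and 5 did not pass. Pdgfrb (0.32) and Pdgfra (0.24), receptors of platelet-derived growth factor, were among these 5 and were higher in every LPR mouse than in any MRL mouse. Itga8 (-0.75, limma adjusted p = 0.0503) and Gata3 (-0.25) were also among them and were lower in every LPR mouse. Of all tested probes, 11.0% were higher and 26.9% lower in every LPR mouse. The sum of the 6 genes, Ren1 included, went from 17.0 to 17.2 in MRL mice to 12.4 to 13.9 in LPR mice. This sum was not taken without Ren1, so it does not describe the other 5 genes. All 4 fibroblast genes rose, with sums of 12.4 to 12.6 against 24.3 to 28.0. Of 4 smooth muscle genes 2 rose, with sums of 16.0 to 19.6 against 25.8 to 28.3.

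Among the tubular lists, calls were found in the proximal tubule and for 1 injury gene. This was Lcn2, which rose by 2.14 on the log2 scale (4.41-fold, limma adjusted p = 0.00483). The injury genes Havcr1 (0.34) and Krt20 (0.53) did not pass. Of 7 proximal tubule genes 3 fell, led by the lactate transporter Slc5a12 (-0.84, limma adjusted p = 0.00828), and the sum was 603 to 652 in MRL mice and 459 to 512 in LPR mice. No gene of the thick ascending limb, distal convoluted tubule, collecting duct or intercalated cell lists passed, out of 11. Of 5 macrophage genes 4 rose, led by Cd68 (8.59-fold, limma adjusted p = 2.92e-05), with sums of 25.9 to 33.5 against 40.5 to 44.3. Itgam (-0.09) did not pass. Of the lymphoid lists, 3 of 4 T cell, 3 of 3 B cell and 2 of 3 plasma cell genes rose, as did 1 of 6 podocyte genes and 1 of 3 tubular injury genes. A list with 1 call is a count of 1 gene and does not describe its cell type. No marker was missing from all arrays. The share of these shifts in the IGF system values was not tested.

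In the wider pathway, 43 further genes were listed by role, and all were tested at their brightest probe. In limma 1 gene rose in LPR mice, 5 genes fell and 37 did not pass, beside 7.12% higher and 5.47% lower among all genes at their brightest probe. The median difference was -0.15, near that of all genes at -0.12.

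Among 10 other ligand and availability genes, Stc1 passed. Stc1 encodes stanniocalcin, an inhibitor of the PAPPA proteases, and gave -2.08, -2.88 and -2.67 in MRL mice against -3.90, -4.45 and -4.37 in LPR mice. It fell by 1.70 on the log2 scale (standard error 0.24, limma adjusted p = 0.00550) without overlap of the groups. With normexp background correction the fall was smaller, at -0.95, and the call was lost with the adjusted methods' test (adjusted p = 0.0540 on log2 and 0.108 on linear values) and with slide position as a block (-1.36). The second ligand gene, Igf2, differed by -0.30 (limma adjusted p = 0.735), and the protease genes Pappa and Pappa2 by 0.47 (limma adjusted p = 0.203) and 1.17 (limma adjusted p = 0.145). The median of the 10 genes was -0.04.

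The 9 genes of insulin family receptors and their adaptors had the lowest median of the 4 lists, at -0.50, and 3 of them fell. The insulin receptor gene Insr gave -1.04, -1.28 and -1.15 in MRL mice and -1.84, -1.87 and -1.91 in LPR mice, a fall by 0.72 on the log2 scale (standard error 0.11, limma adjusted p = 0.00642), and 2 of its 3 probes passed. Irs1, the adaptor that links both receptors to PI3K, fell by 0.57 (limma adjusted p = 0.0282). Grb14, an adaptor that inhibits the insulin receptor, fell by 0.59 (limma adjusted p = 0.0109), and 2 of its 4 probes passed. Each of these 3 genes was lower in every LPR mouse than in any MRL mouse, which is partly fixed by their having passed. Of the genes that did not pass, Insrr (-0.50), Irs2 (-0.66) and Gab1 (-0.23) were also lower in every LPR mouse. The groups overlapped at Irs4, Shc1 and Grb10. Of all tested probes, 26.9% were lower in every LPR mouse.

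Downstream, 1 of 17 genes of the PI3K-AKT-mTOR-FOXO route passed, with a median of -0.13. The kinase gene Mtor gave 0.57, 0.51 and 0.48 in MRL mice and 0.15, 0.14 and 0.11 in LPR mice, a difference of -0.38 (limma adjusted p = 0.0417). The groups did not overlap at this probe, and 1 of the 2 tested Mtor probes passed. In the growth hormone axis 1 of 7 genes passed, at a median of -0.07. Socs3, an inhibitor of cytokine and growth hormone signalling, rose by 2.19 on the log2 scale (limma adjusted p = 0.000725), from a mean of -0.70 in MRL mice to 1.48 in LPR mice, without overlap. The growth hormone receptor gene Ghr differed by -0.53 at its brightest probe without passing (limma adjusted p = 0.102), while 2 of its 4 tested probes were lower.

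The calls for Stc1, Insr and Socs3 did not change when any 1 mouse was left out. That for Irs1 was lost without any of MRL 1 (-0.56), MRL 2 (-0.61), MRL 3 (-0.55), LPR 2 (-0.57) or LPR 3 (-0.48). That for Grb14 was lost without MRL 2 (-0.58), MRL 3 (-0.57) or LPR 3 (-0.56), and that for Mtor without any single mouse, at values between -0.40 and -0.36.

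**Figure D5:**
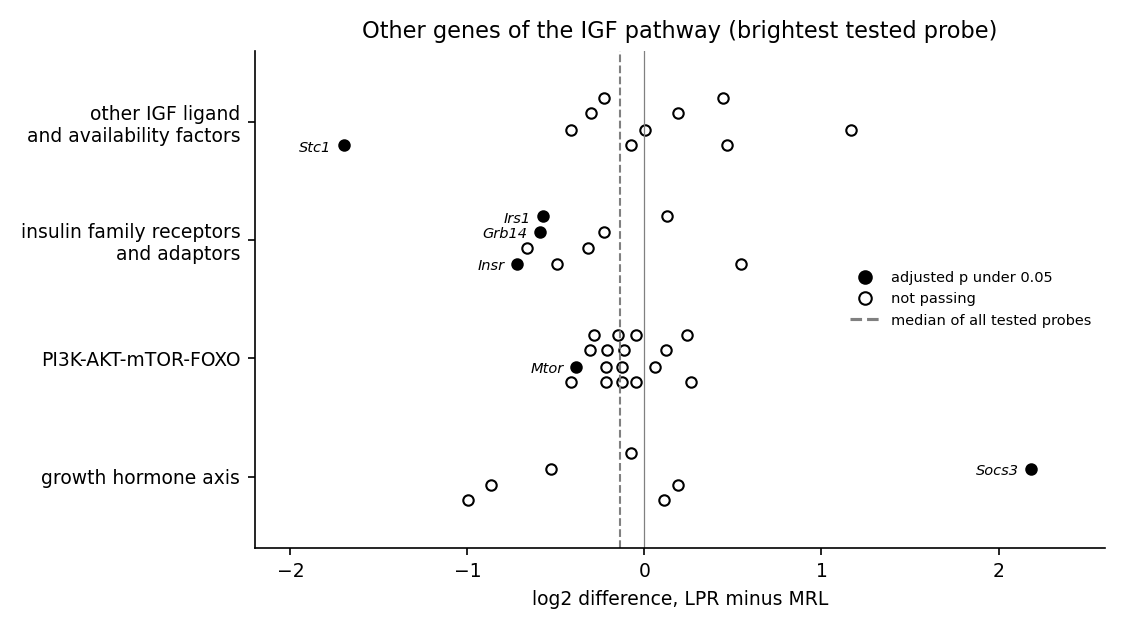
Log2 difference between LPR and MRL mice (x axis) at the brightest probe of 43 further genes of the IGF pathway, in 4 lists (y axis). Filled points passed an adjusted p of 0.05 and are named, with Stc1 at -1.70 and Socs3 at 2.19 the farthest out, and the dashed line is the median of all tested probes at -0.14.

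By the first of the 2 numbers that end the array index in the file headers, the arrays formed 2 sets. These sets are called slide positions here as a label only, since the second number was not used. The groups were not spread evenly over them. Position 1 held MRL 1, MRL 2, MRL 3 and LPR 1, and position 2 held LPR 2 and LPR 3. Within position 1 Igfbp5 differed by -3.87 at A_52_P281702 and by -3.94 at A_66_P101782, with 1 LPR mouse. Igf1 differed there by 0.57 and Igf1r by -0.68 at their brightest probes. With position in the model the estimate is that of LPR 1 against the 3 MRL mice, and the lone LPR mouse is assumed to vary like the others. Igf1 and Igf1r kept their direction but did not pass in limma (adjusted p = 0.101 for Igf1 and 0.0627 for Igf1r). Of the 6 called pathway genes, Socs3 passed in that fit and 5 did not, on the same single LPR mouse.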

How the data were processed

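Total RNA of 6 kidneys was labelled with Cy3 and hybridized to Agilent SurePrint G3 mouse arrays (1 slide, 1 scan start). The paper names Trizol and the labels the RNeasy kit for the isolation. For each spot the authors deposited the processed intensity from Feature Extraction 12.0.3.1 (version per the labels), background-subtracted and not normalized between arrays. They also deposited a table of the same intensities as a ratio to each array's 75th percentile, control spots included, which served as an alternative.

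Here, 59305 spots per array that are not controls were used. Intensities were divided by the 75th percentile of the array (706 to 942) and taken to log2, outlier spots (73 to 90 per array) were left out and spots of a probe averaged. Probes well above background on at least 3 of 6 arrays (39924) were tested with limma 3.58.1 in R 4.3.3, LPR minus MRL, with Benjamini-Hochberg adjustment over all of them and a threshold of 0.05. The brightest tested probe stands for a gene in the lists and plots. Steps were tested on simulated data. An exact test of 3 against 3 mice cannot reach the threshold, so no such test is given. A limma p-value sets the group difference against the spread between these mice within groups, which limma moderates with the other probes.

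The members and lists were chosen with earlier results of these data known. Named were all members with every probe, the passing genes of each pathway list, and the genes of the endothelial, macrophage and proximal tubule lists that changed most. Fas and the 5 genes most like Igfbp5 were named too. Genes named outside that rule (Ren1, Pdgfrb, Pdgfra, Itga8, Gata3, the neighbours, the fat genes, Gm46902, AK083287, and pathway genes that did not pass) were chosen after their values were seen. Neighbours come from a RefSeq table of build GRCm38.p6, used for gene order only, and 10 of 10 members matched it. Array names of genes can be old. The plots were made in python 3.11.15 using matplotlib 3.10.9.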

Additional observations from a re-analysis of the deposited data

How the results depend on the processing

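The fall of Igfbp5 kept its direction in all alternatives run. It was -3.87 with slide position as a block, between -4.70 and -4.14 when 1 mouse was left out, and no lower than -4.48 under the others. The call counts of the other IGF system probes were small and moved more. The 1 higher probe became 2 under normexp, quantile normalization, an intensity trend, a floor on dim signals, detection required on all 6 arrays and the methods' test without adjustment on log2 or linear values, and 0 with slide position as a block. The 2 lower probes became 1 with no filter, a percentile over detected probes, a median shift or the methods' test with adjustment on either scale, 3 under normexp, the intensity trend and the methods' test without adjustment on either scale, and 0 with slide position as a block, where 1 LPR mouse carries the estimate. Leaving out 1 mouse gave 0 to 2 in each direction. Of the pathway genes, 1 was higher, 2 under the methods' test without adjustment, and 1 to 2 with 1 mouse left out. The 5 lower genes became 8 under normexp, 3 with no filter, 0 with slide position as a block, 10 under the methods' test without adjustment and 3 with adjustment, on either scale, and 2 to 4 with 1 mouse left out. In limma at an unadjusted p under 0.05, slide position as a block left 2 of the other IGF system probes higher and 5 lower, with 8 pathway genes lower.

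The deviations of mice with the same replicate number correlated by 0.12, 0.02 and 0.01 over probes. The labels do not say whether a number marks a shared litter or day. These correlations cannot settle that with so few mice, so whether the numbers pair the mice is not known. With the replicate block, 0 of the other IGF system probes were higher and 0 lower in limma (2 and 4 at an unadjusted p under 0.05), 1 pathway gene was higher and 3 lower, and over all probes 2199 were higher and 1117 lower, against 2606 and 2462 without it. Lower calls over all probes were 4498 under normexp, 1093 with no filter, 7175 (log2) and 7384 (linear) under the methods' test without adjustment, 1385 and 1353 with it, and 760 to 2269 with 1 mouse left out. With slide position as a block 1458 were higher and 463 lower.

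Of 23 alternatives each, Igf1 lost its call in 7 and Igf1r in 8, while Igfbp2 gained one in 8 and Igf2r in 4. The sign of the uncalled values of Igfbp3, Igfbp4 and Igfbp6 changed in 10 cases. The causes were not tested.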
